A study of Caenorhabditis elegans with 2 samples.

Results

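The genes described here are the histone genes of Caenorhabditis elegans, in a ChIP-seq experiment on the nuclear hormone receptor NHR-11. They were chosen by symbol, as every protein-coding gene of the WBcel235 annotation named his- followed by digits, which gave 72 gene records of 19973 protein-coding genes on the nuclear chromosomes. The annotation uses only 50 different symbols for the 72 records, because 22 records carry the symbol of another copy. All 72 were therefore matched by WormBase gene ID to RefSeq, which gives each its own symbol, and those symbols are used below.

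Worms of strain OP305, with the genotype unc-119(ed3) III; wgIs305, were studied whole at the L3 larval stage, with the sexes mixed. Per the labels, the integrated insertion wgIs305 targets nhr-11 and the tagged product is named eGFP-nhr-11, but the antibody label names nhr-11, so it is not known which part of the fusion was recognised. There was 1 group with 2 biological replicates and no second condition, so the results are positions in the genome and their ranks. The promoter that drives the fusion and the number of worms per replicate are not given in the labels, and in whole worms the cells that contributed a region are not known.

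Histones package DNA. H2A, H2B, H3 and H4 form the nucleosome core, and H1 binds the linker DNA between nucleosomes. Most animal histone genes are replication-dependent: they occur in many copies, lack introns, are transcribed in S phase, and their messages end in a stem and loop in place of a poly(A) tail. A smaller number, such as the genes of the variant H3.3, are replication-independent, usually have introns and make polyadenylated messages throughout the cell cycle.

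The deposited lists gave one value per region, the peak signal of the authors' caller, whose scale was not stated. It was used only to rank regions within a list, where rank 1 is the strongest. The reproducible list held 1030 regions that passed an irreproducible discovery rate threshold, a filter on how well ranks match between replicates, with signals from 54.9 to 899. The candidate list of both replicates pooled and those of each replicate held 30000 regions each and were made to include background. The weakest signal was 19.4 in the pooled list, 11 in replicate 1 and 9.47 in replicate 2. Each gene was given the strongest region with a summit in a window around its annotated 5′ end, which reached 1000 bases upstream and 500 bases downstream. In 65 of the 72 histone records the annotated model begins at the start codon, so positions are counted from there. The lists hold no read counts, so depth is unknown, and a gene without a region may have a signal too weak to be listed.

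A single histone gene, his-37, carried a reproducible region. This was 1 of 72 records (1.39%), where 3.3% of all protein-coding genes carried one. The gene encodes histone H4 and lies at chrV:9547105-9547607 on the plus strand, as WBGene00001911. Its region spanned chrV:9546816-9547171. The summit fell between genes, 111 bases before his-37 begins, and in the window of no other protein-coding gene. The 300 bases centred on the summit are shown because they hold the only strong region of the family. They run from chrV:9546844-9547143 on ce11 (RefSeq assembly WBcel235) on the strand of the gene, and capitals mark the word TATAAA, whose first base lies 50 bases upstream of the gene start.

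his-37: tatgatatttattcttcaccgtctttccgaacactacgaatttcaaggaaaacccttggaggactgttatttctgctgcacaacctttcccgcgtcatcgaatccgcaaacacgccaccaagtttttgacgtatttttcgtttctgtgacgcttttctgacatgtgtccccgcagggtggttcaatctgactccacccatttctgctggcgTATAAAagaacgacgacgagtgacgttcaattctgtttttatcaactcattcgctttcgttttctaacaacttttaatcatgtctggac

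The signal at his-37 was 354 in the pooled list, 176 in replicate 1 and 174 in replicate 2. It ranked 9 of 30000 in the pooled list, 10 in replicate 1 and 15 in replicate 2. The summits of the 3 lists lay 111, 85 and 107 bases upstream of the start, so both replicates placed the region alike. All words of 31 bases in the pooled region occur once in the genome, counted as exact matches. Near matches were not searched, and how reads with several matching positions were treated is not given. Of the 7 sequence words searched, TATAAA alone was present within 150 bases of the summit, and it occurred once.

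The protein of his-37 is no different from that of the other H4 genes. The translated coding sequence of 103 residues was identical in all 16 H4 records. The gene model differs: his-37 has 2 exons, and none of the other H4 records has an intron. No other H4 record except his-67, which has no intron, had a region in any list. The windows of his-37 and his-67 were also the most unique among the H4 records. By words of 31 bases that occur once in the genome, the share was 99.9% at his-37 and 90.5% at his-67. It was below 90% at every other H4 record, and the median of the 16 was 34.4%. The part of the intron or of unique sequence was not tested.

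**Figure D1:**
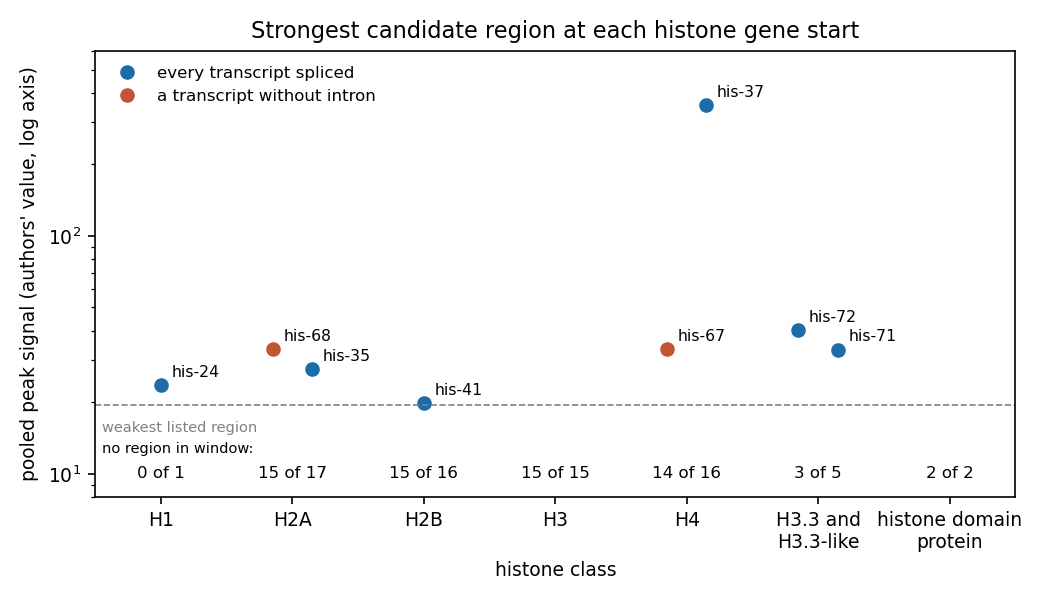
Strongest pooled candidate region at the start of each histone gene, by histone class. Each point is a gene, the vertical axis is the authors' peak signal on a log scale, the dashed line is the weakest listed region at 19.4, and the counts give the records of each class with no region. The point of his-37 stands at 354, and the other 7 genes lie between 19.8 and 40.2.

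In the candidate lists, 8 histone records had a pooled region in the window (11.1%), where 43.2% of all protein-coding genes had one. Replicate 1 had a region at 6 records (8.33%), where 42% of all genes had one, and replicate 2 also at 6 (8.33%), where 42.6% had one. Among the 5000 strongest pooled regions there were regions at 4 records (5.56%), namely his-37, his-72, his-67 and his-68, where 10.5% of all genes had one. With the 1030 strongest regions of a single replicate, his-37 was again the one record in each, where the share of all genes was 3.07% in replicate 1 and 3.11% in replicate 2. The remaining 64 records had no region in any of the 4 lists. Over the 8 records with a pooled region the median rank was 4933, and over all protein-coding genes with one it was 12482. The 8 records hold 7 distinct regions, since his-67 and his-68 share one. In the list of a single replicate the median over histone records with a region was 3124 in replicate 1 and 10108 in replicate 2.

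The records with a region were mostly those with introns. In 7 histone genes every annotated transcript is spliced: his-24, his-35, his-37, his-41, his-71, his-72 and his-74. Of these, 6 had a pooled region (85.7%), and his-74 had none. Among the 6, his-35, his-37 and his-41 lie close together at chrV:9544659-9547607, so they are not independent. The summit counted for his-35 was nearer to C50F4.6, and the region of his-41 had rank 28635, near the bottom of the list. Of the 65 records with an intronless transcript, 2 had a pooled region (3.08%), the neighbours his-67 and his-68. Over all protein-coding genes the share was 43.5% of 19030 spliced genes and 35.9% of 943 genes with an intronless transcript. In windows with at least 90% of 31-base words found once in the genome, it was 47.2% of 16368 and 47.2% of 644. In such windows the histone counts were 6 of 7 spliced and 2 of 3 with an intronless transcript. The difference in copy number between these groups of histone genes is described below, and the part of either feature in the counts was not tested.

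Of the 72 records, 5 were single, with no other histone gene start within 10000 bases. They are his-24, his-71, his-72, his-73 and his-74, and none had a reproducible region. The other 67 lay in 14 clusters, and 1 of them, his-37, had a reproducible region (1.49%), where 3.3% of all protein-coding genes had one. A pooled region was present at 3 of the 5 single genes (60%) and at 5 of the 67 clustered records (7.46%), against 43.2% of all genes. Windows with at least 90% of 31-base words found once in the genome numbered 4 of the 5 single and 6 of the 67 clustered. Among the clustered records with a pooled region, his-35, his-37 and his-41 have introns. The part of each feature was not tested.

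The genes of the H3.3 class differed among themselves. The gene his-72 encodes H3.3 and lies at chrIII:12367475-12369050. Its region had a signal of 40.2 and rank 2421 in the pooled list, 24.9 and rank 1442 in replicate 2, and 14.2 and rank 15563 in replicate 1. The replicates therefore placed it far apart in strength, although their summits coincided 606 bases upstream of the start. The pooled summit, 600 bases upstream, also lay in the window of rpt-6, a proteasome ATPase gene. The second H3.3 gene, his-71 at chrX:7981382-7982070, had a pooled signal of 33.2 and rank 5024, with a summit 334 bases upstream. Its ranks in the replicates were close, at 9253 and 9317, but the summits were 528 bases upstream in replicate 1 and 341 in replicate 2. The H3.3-like gene his-74 had its nearest pooled summit 606 bases downstream of the start, just outside the window, with a signal of 29.6 and rank 7901. The H3.3-like genes his-69 and his-70 are neighbours without introns, and their nearest pooled summits were 2207 and 2936 bases away.

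The gene his-24 encodes a linker histone H1 and lies at chrX:14490094-14491119. Its pooled region had a signal of 23.5 and rank 18006, with a summit 11 bases downstream of the start in a noncoding exon of his-24, where the noncoding RNA gene M163.19 overlaps. Replicate 2 had a region there, with a signal of 13.9 and rank 10900, and replicate 1 had none. The remaining single gene, his-73, is annotated as a protein with a histone domain, with a predicted product of 46 residues, and had no region. Its nearest pooled summit lay 1910 bases upstream, with a signal of 51.8 and rank 1161.

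The 120 bases around the pooled summits of the H3.3 genes his-72 and his-71, both on the minus strand as the genes are, are shown to compare these weaker regions with the strong region at his-37. They lie at chrIII:12369590-12369709 and chrX:7982344-7982463 on ce11, and capitals mark the searched words.

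his-72: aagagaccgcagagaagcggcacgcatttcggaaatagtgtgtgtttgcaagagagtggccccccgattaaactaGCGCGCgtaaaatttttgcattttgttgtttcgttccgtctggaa

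his-71: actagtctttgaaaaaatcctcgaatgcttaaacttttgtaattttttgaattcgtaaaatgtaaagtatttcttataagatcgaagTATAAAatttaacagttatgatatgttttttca

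Base composition was unlike in these stretches. G and C made up 47.5% of the bases at his-72, 22.5% at his-71 and 43% of the 300 bases at his-37. Of the 7 words, GCGCGC alone stood in the stretch of his-72 and TATAAA alone in that of his-71.

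The neighbours of his-37 had weak regions. The genes his-35, which encodes an H2A, and his-41, which encodes an H2B, are transcribed divergently from a spacer of 247 bases and form a cluster of 3 with his-37. The strongest pooled region in the window of his-35 had a signal of 27.5 and rank 10527, with a summit 862 bases upstream of the start. That summit lay in the coding exon of his-41 and 58 bases from the start of C50F4.6, so it was nearer to another gene. In replicate 1 it had a signal of 22.4 and rank 2652, and in replicate 2 the strongest region of his-35 was another one, in the spacer 197 bases upstream, with a signal of 9.65 and rank 28977. The region of his-41 had a pooled signal of 19.8 and rank 28635, near the bottom of the list, with a summit in the spacer 43 bases upstream of the start. Replicate 1 had no region for his-41, and the strongest in replicate 2 lay 973 bases upstream with rank 25601, nearer to mdf-1. The region of replicate 2 in the spacer, given above for his-35, also lay in the window of his-41, 51 bases upstream of its start. The strong summit of his-37 was 1458 bases downstream of the start of his-41 and 1706 bases upstream of that of his-35, and so outside both windows.

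**Figure D2:**
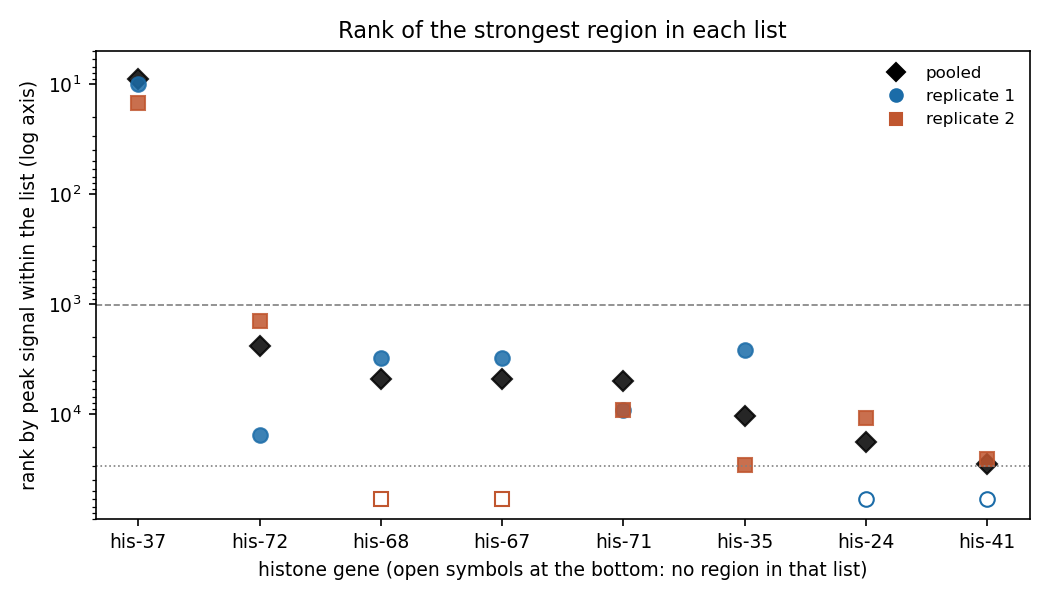
Rank of the strongest region at the 8 histone genes that had a pooled one, in the pooled list and in each replicate. The vertical axis is the rank by peak signal on a log scale with the strongest at the top, the dashed line is the 1030 regions of the reproducible list, and the dotted line is the 30000 regions of a candidate list. All 3 ranks of his-37 lie between 9 and 15, and 4 of the other genes had no region in one replicate.

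The clustered copies were nearly all without regions. Apart from the cluster of his-35, his-41 and his-37, the only one with a region was the pair his-67 and his-68, which encode an H4 and an H2A on chromosome I. They shared 1 region, with a pooled signal of 33.5 and rank 4842 and a summit 231 bases upstream of his-67 and 138 bases upstream of his-68. It had a signal of 21.6 and rank 3124 in replicate 1, and there was no region in replicate 2. The summit also lay in the window of alg-5, an Argonaute gene.

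In the other 12 clusters none of the 62 records had a region. These clusters spanned 57988 bases in all, with 2 to 13 records each. In 9 of the 12 there was no pooled summit within 1000 bases of the span. The largest, with 13 records at chrII:13817760-13828697, held 1 summit between genes, of signal 31.9 and rank 5937, 744 bases from the start of his-25 and 867 bases from that of his-9, downstream of both. The other 2 summits lay in rod-1, 549 bases from the H2A, H2B, H3 and H4 cluster that starts with his-61, and in frpr-13, 629 bases from the cluster of his-28 to his-18. On chromosome V the clusters at 8847393 to 8854053 and at 8889488 to 8898539, with 6 and 8 records, fell in one stretch of 90839 bases without a pooled summit. This was the third longest of 29994 stretches between neighbouring summits, whose median was 2136 bases, and 4.6% of its words of 31 bases occur once in the genome.

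On chromosome IV, 4 clusters had no pooled summit within 1000 bases. In the cluster at chrIV:11324056-11326998, with the 4 records his-45 to his-48, 2.99% of the words of 31 bases occur once in the genome, and the nearest summit was 2707 bases away. In that of his-55 to his-58 at chrIV:11337853-11341703 the share was 23.7% and the distance 1378 bases. In that of his-29 to his-34 at chrIV:8331044-8336340 they were 48.8% and 2740 bases, and in that of his-63 to his-66 at chrIV:11400415-11407427 they were 66.8% and 3638 bases.

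Among the clusters without regions, some others had spans of partly or mostly unique sequence. The pair his-69 and his-70 at chrIII:4058360-4060119 had a span of 97.7% unique words and its nearest summit 1824 bases away, with a signal of 24.6. The cluster of his-61, his-62, his-60 and his-59 had a span of 78.3% unique words. The cluster of his-1 to his-4 at chrV:16040144-16042831 had 66% and its nearest summit 1641 bases away, with a signal of 20.1. The pair his-38 and his-40 at chrX:7309564-7310520 had 64.8% and its nearest summit 3419 bases away, with a signal of 42 and rank 2077. In the cluster of his-5 to his-8 with his-39 at chrV:8532715-8536716 the share was 57.9%, and the nearest summit, of signal 32.8, lay 2298 bases away.

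Some records without a region had a pooled summit just past a limit of the window. Of the 64 without a region, the nearest pooled summit was under 1000 bases away for 5, namely his-74, his-25, his-9, his-61 and his-18 at 606, 744, 867, 932 and 940 bases downstream of their starts. It was at least 2000 bases away for 53. Past the upstream limit, the nearest were those of his-26, his-42, his-10 and his-17, at 1017, 1089, 1140 and 1176 bases upstream. Inside the window, the strongest pooled region of a record lay farthest from the start at his-35, at 862 bases upstream.

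By class, pooled regions were present at the H1 gene, at 2 of 17 H2A records, 1 of 16 H2B and 0 of 15 H3. They were present at 2 of 5 of the H3.3 class, 2 of 16 H4 and 0 of 2 proteins with a histone domain. Over all protein-coding genes the share was 43.2%. In the same order, windows with at least 90% of 31-base words found once in the genome numbered 1, 2, 1, 0, 4, 2 and 0. The part of such sequence in the class counts was not tested. The nearest pooled summit was at a median of 3235 bases from the starts of the 72 records and 984 bases from those of all protein-coding genes. It was more than 5000 bases away for 18 of the 72 (25%) and for 6.85% of all genes. Summits numbered 0.017 per kb (1 summit) in the 58.7 kb of windows of the records with an intronless transcript. They numbered 0.882 (8 summits) in the 9.07 kb of those with every transcript spliced. The values were 0.334 in the windows of all protein-coding genes and 0.299 in the whole nuclear genome. The cluster of his-35, his-41 and his-37 alone had 6 pooled summits in its span and the 1000 bases to each side.

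Sequence shared between copies moved with these counts. Of the 72 records, 61 encode a protein identical to that of another record, and the 72 encode 17 different proteins. The share of 31-base words in a window that occur once in the nuclear genome had a median of 20.5% over the 72 windows and was 0% for 17 of them, against at least 96.6% in the 7 genes with every transcript spliced. All 8 records with a pooled region were among the 10 whose windows had at least 90% such words. The 2 without were his-69 and his-74. None of the 62 records below 90% had a region.

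The same order held across the genome. Of all protein-coding genes, a pooled region was present at 0.847% of the 354 with windows under 30% unique, 7.73% of the 453 from 30 to under 60%, 26% of the 2154 from 60 to under 90%, and 47.2% of the 17012 with at least 90%. The histone counts in these bands were 0 of 40, 0 of 6, 0 of 16 and 8 of 10. For the 40 records in the lowest band, the absence of a region is therefore close to what the lists give for any such gene, and their occupancy could not be read. How the authors treated reads with several matching positions is not given in the sources used here, and the part of repeated sequence in the histone counts was not tested.

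**Figure D3:**
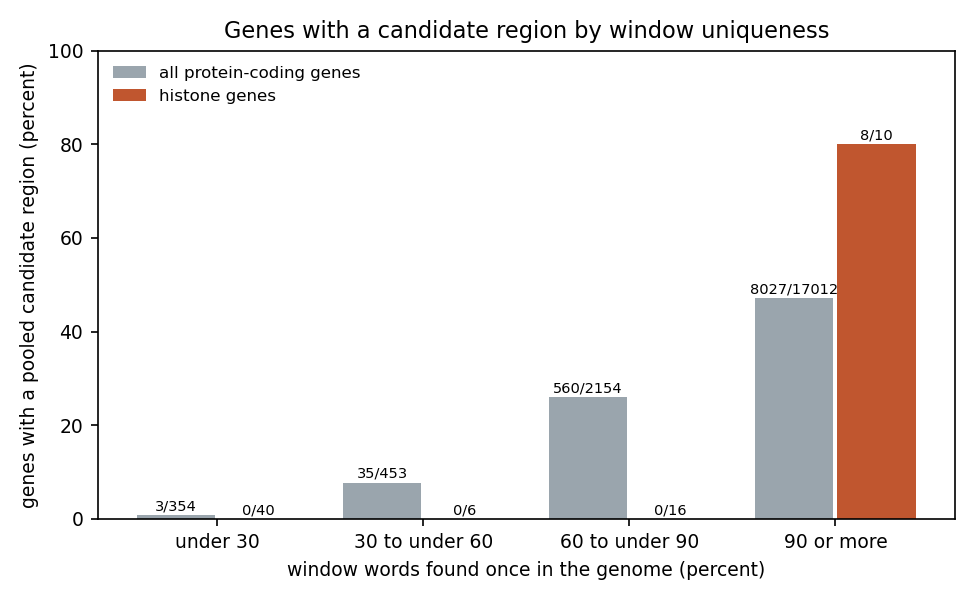
Share of genes with a pooled candidate region, by how much of the window sequence occurs once in the genome. Grey bars are all protein-coding genes, orange bars are histone genes, and the counts above the bars are genes with a region over genes in the band. The share of all genes goes from 0.847% in the lowest band to 47.2% in the highest, and the histone genes have regions in the highest band alone.

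**Figure D4:**
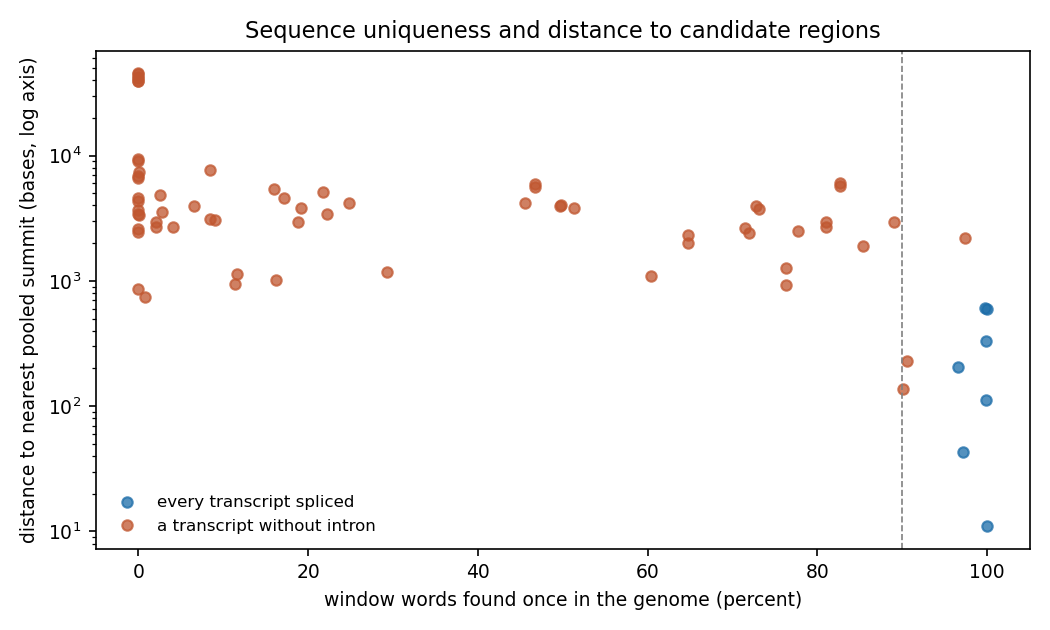
Distance from each of the 72 histone gene starts to the nearest pooled summit, on a log axis, against the share of window words found once in the genome. Blue points are genes with every transcript spliced, orange points are records with an intronless transcript, and the dashed line is at 90%. The blue points lie right of the line at 11 to 606 bases, and the orange points left of it lie at 744 to 45342 bases; the 3 orange points right of the line are his-67, his-68 and his-69.

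Between divergent copies, some spacers have unique sequence. Of the 72 records, 62 are arranged as 31 divergent pairs with spacers of 227 to 368 bases, 14 pairs of H3 with H4, 16 of H2A with H2B, and his-67 with his-68. The spacers of 16 pairs are identical to that of another pair, and in 17 no word of 31 bases occurs once in the genome. In 8 spacers at least 90% of the words do, and 2 of these held a pooled summit (25%), those of his-67 with his-68 and his-35 with his-41. The 6 without were those of his-61 with his-62, his-60 with his-59, his-31 with his-32, his-4 with his-3, his-2 with his-1 and his-38 with his-40. Among the other divergent pairs of protein-coding genes with spacers in the same range of lengths and as unique, 87 of 284 held a summit (30.6%). The difference between these shares was not tested. The region between his-67 and his-68 was not listed in replicate 2. That between his-35 and his-41 had pooled rank 28635, near the bottom of the list, and these genes have introns. Where a histone model begins at the start codon, its spacer includes any transcribed sequence before that codon, so the spacers may not be alike.

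An H3 and H4 spacer of each kind is shown, the repeated one because its sequence is the same in 3 pairs of the largest cluster, and the unique one because all its words of 31 bases occur once in the genome and it held no summit. The first lies between his-10 and his-9 at chrII:13823376-13823647, and the second between his-2 and his-1 at chrV:16042284-16042519. Both are written on the plus strand, from the H4 start to the H3 start in the first and from the H3 start to the H4 start in the second, and capitals mark the searched words on either strand.

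his-10 to his-9: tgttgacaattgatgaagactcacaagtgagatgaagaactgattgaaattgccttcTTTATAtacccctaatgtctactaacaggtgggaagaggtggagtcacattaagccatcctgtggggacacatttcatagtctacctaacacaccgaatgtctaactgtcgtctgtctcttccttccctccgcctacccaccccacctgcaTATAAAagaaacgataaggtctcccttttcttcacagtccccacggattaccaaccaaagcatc

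his-2 to his-1: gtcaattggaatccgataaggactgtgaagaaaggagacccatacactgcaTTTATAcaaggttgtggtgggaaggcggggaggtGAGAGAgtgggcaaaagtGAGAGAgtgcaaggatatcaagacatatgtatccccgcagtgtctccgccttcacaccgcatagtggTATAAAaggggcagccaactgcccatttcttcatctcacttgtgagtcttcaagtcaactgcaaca

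Each of these spacers has TATAAA in both orientations, pointing to each gene. Of the 31 spacers, 24 held this word on either strand, and 10 of the 14 H3 and H4 spacers held it at 2 or more places. In the 250 bases before to 50 bases after the start, both strands searched, TATAAA was present at 47 of 72 records (65.3%) and 37.9% of all protein-coding genes. CTCCTC was present at 33 records (45.8%) and 13% of all genes, and GAGAGA at 33 (45.8%) and 21.8%. ACGCAG was present at 10 records (13.9%) and 8.23% of all genes, AGACGC at 3 (4.17%) and 7.87%, and GCGCGC at 1 (1.39%) and 3.58%. CACGTG, the E-box, was present at 1 (1.39%) and 5.82%. The single record with GCGCGC and with CACGTG was his-72. GAGAGA stood in 16 spacers, which included both spacers that held a summit and 14 that held none. Copies share their spacers, so these records are not independent. All the words but CTCCTC had been seen at summits in earlier results of these data, so their presence at summits is no separate evidence.

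The 3′ ends of the records were searched for the histone stem and loop. A stem of 6 bases starting with GG, a loop of 4 bases and the exact complement of the stem were searched in the 100 bases after the stop codon. The form found in his-16 is shown with its stem in capitals, as it stands on chromosome II.

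his-16: GGCCCTctttAGGGCC

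Such a stem and loop was present in 56 of the 72 records and in 0.335% of all protein-coding genes. It was present in 56 of the 65 records with an intronless transcript and in 0 of the 7 with every transcript spliced. The records with an intronless transcript but without the stem and loop were his-19, his-39, his-47, his-53, his-57, his-68, his-69, his-70 and his-73. Of these, his-57 also has a spliced transcript. Of the 56 records with it, 1 had a pooled region (1.79%), his-67. Of the 16 without it, 7 had one (43.8%), close to the 43.2% of all protein-coding genes. Among the records with it, his-67 alone had a window with at least 90% of its 31-base words found once in the genome. The part of repeated sequence in these counts was not tested. A variant with another loop base was found in the H2B records his-20, his-22, his-52 and his-54. This search was exact and was chosen with results of these data known, and a record without a match may have a stem of another form.

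Related genes were counted in the same way, where 43.2% of all protein-coding genes had a pooled region and 3.3% a reproducible one. In the list of 11 other histone and linker histone genes, 5 had a pooled region (45.5%) and 1 a reproducible one (9.09%), htz-1, which encodes the variant H2A.Z. Its signal was 100 in the pooled list, with rank 254, and its ranks were 181 in replicate 1 and 453 in replicate 2. The summit lay 310 bases upstream of htz-1 and was nearer to the start of wapl-1. The genes hcp-3 and cpar-1, which encode centromeric H3 proteins, had no pooled region. A region was listed for hcp-3 in replicate 1, with rank 19708, and for cpar-1 in replicate 2, with rank 29387.

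Among 17 genes of histone chaperones, chromatin assembly and histone message processing, 5 had a pooled region (29.4%, against 43.2% of all genes) and 1 a reproducible one (5.88%, against 3.3%). It lay 230 bases upstream of lin-53, which encodes a histone-binding protein of several chromatin complexes, with a signal of 99.6 and rank 261, and it was shared with nra-2. The gene cdl-1, which encodes the protein that binds the histone stem and loop, had no region in any list.

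Among 29 genes of histone modification and its readers, 12 had a pooled region (41.4%) and 6 a reproducible one (20.7%), where 3.3% of all genes had a reproducible one. The strongest, with a signal of 157, rank 82 in the pooled list and ranks 100 and 72 in the replicates, lay 822 bases upstream of cbp-1, which encodes an acetyltransferase of the p300 and CBP family. Those of set-4, an H4 lysine methyltransferase gene, and met-1, an H3 lysine methyltransferase gene, had signals of 110 and 91.7. Those of rbr-2, an H3 lysine demethylase gene, and mes-2, the catalytic gene of the worm Polycomb complex, had 74.4 and 57.5. The summit at ash-2, with a signal of 105, lay 459 bases downstream of its start and was nearer to Y17G7B.20. This list, like the others of related genes, is short and hand-made and was chosen with earlier results of these data known. Its share was not tested.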

How the data were processed

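ChIP-seq was done on whole L3 larvae in 2 biological replicates, and 4 deposited peak lists on the ce11 build were used. Per the texts deposited with them, the lists were derived from sample and control alignments, and the signal of each region is the authors' value. Control reads were not used here. The sources used here name no caller, aligner or version. The ce10 lists were not used here, since no annotation of that build was at hand.

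Genes came from Ensembl release 115 (WBcel235, the same build as ce11), symbols and products from RefSeq, and sequence from the RefSeq genome of WBcel235. Coordinates are 1-based. Words of 31 bases were counted over both strands. Clusters join histone genes whose starts lie within 10000 bases. Python 3.11.15, pandas 2.3.3, numpy 2.4.6 and Biopython 1.88 were used. The window assignment was checked on simulated data. Counts of genes are described beside those of all protein-coding genes, and no test was made, since there was 1 group and copies are not independent.

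The members, gene lists and words were chosen with earlier results of these data known. Named genes were those with a reproducible region or one of the 5000 strongest pooled regions, all single genes, the strongest region of each cluster, and related genes with a reproducible region. Alternatives covered the window, nearest gene, unique sequence, each replicate, the number of regions and the cluster distance. The whole gene span was added after the data were examined.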

Additional observations from a re-analysis of the deposited data

How the results depend on the processing

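The count of 1 histone gene with a reproducible region was the same under each alternative but one, and his-37 was that gene in the list of either replicate alone. With windows of 2000 bases to each side, 3 clustered histone genes had one, namely his-37, his-35 and his-41, which then share the same region, while 5.22% of all genes had one. With those windows 19 records had a pooled region in place of 8, where 71.8% of all genes had one. The number of single genes with a reproducible region was 0 in every alternative run. The number of records with a region was 6 in the candidate list of either replicate alone. With pooled regions it was 6 with the nearest gene only and 7 with windows of 500 bases upstream to 250 downstream. It was 8 with regions of unique sequence and 11 over the whole gene span. The regions at the 8 records each had at least 97.5% of their words found once in the genome. The median rank was 10108 in the list of replicate 2 alone and 3124 in that of replicate 1 alone, where it was 4933 in the pooled list. Cluster distances of 5000 and 20000 bases left 67 clustered records. No paired analysis was possible because there is 1 group. The lists hold no counts, so depth is unknown and the precision of a single signal cannot be given.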
